A study of Mus musculus with 8 samples.

Results

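Integrins are cell surface receptors made of an α and a β chain, and 10 integrin chain genes were followed here in tumor-associated macrophages (TAMs) from mice given the antibiotic thiostrepton. They were Itgax, Itgam, Itgal, Itgb2, Itga4, Itgb7, Itgb1, Itga6, Itgav and Itgb5, out of 23413 genes in the count table. The 10 were chosen from measured values of these libraries, with the IS mice set against the IP and DMSO mice in view, so their IS values are given below as a description without a test. The other 17 integrin chain genes of the mouse family of 27 were counted beside them.

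All 8 mice were male C57BL/6 animals that had been 8 to 10 weeks old when B16F10 cells, a mouse melanoma line, were placed under the skin. The mice were dosed on days 6 and 12, and on day 18 the CD45+F4/80+CD11b+Gr-1- fraction of each tumor was sorted and sequenced as 1 library per mouse. The DMSO group (n = 2) received vehicle, the IP group (n = 4) received thiostrepton by intraperitoneal injection, and the IS group (n = 2) received thiostrepton at 20 mg/kg under the skin beside the tumor. The intraperitoneal doses that the study names for this tumor model are all higher than the IS dose. Which of them the IP mice received, and the route of the DMSO mice, were not given in the labels. Route and dose thus differ together between IS and IP and cannot be told apart.

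An α and a β chain must join inside the cell before either reaches the surface, and the pair decides which ligand is bound. Macrophages carry β2 integrins, which bind ICAMs and complement fragments, together with β1, αv and α4 integrins that hold extracellular matrix, VCAM-1 and debris from dead cells. CD11c, the product of Itgax, is widely used as a mark of dendritic cells but is also made by macrophages in inflamed tissue. CD11b, the product of Itgam, was part of the sort gate, so cells without it on the surface were not collected.

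Itgal, Itgam, Itgax and Itgad stand in a row on chromosome 7 and encode the α chains that pair with β2. In GRCm38, Itgam lies at chr7:128062640-128118491 and Itgax at chr7:128129547-128150657, both on the plus strand and 11.1 kb apart. Itgal lies 727.5 kb before Itgam. The 250 bases before the RefSeq starts of Itgam and Itgax are shown because these close neighbors parted in IS mouse 1. Itgax was above its level elsewhere in both IS mice, and Itgam in IS mouse 2 only. Both stretches are on the plus strand of GRCm38.p6, at chr7:128062390-128062639 and chr7:128129300-128129549. Capitals mark GAGGAA or its reverse complement TTCCTC, the core letters bound by the myeloid factor PU.1, and TGANTCA, the letters bound by AP-1.
Itgam: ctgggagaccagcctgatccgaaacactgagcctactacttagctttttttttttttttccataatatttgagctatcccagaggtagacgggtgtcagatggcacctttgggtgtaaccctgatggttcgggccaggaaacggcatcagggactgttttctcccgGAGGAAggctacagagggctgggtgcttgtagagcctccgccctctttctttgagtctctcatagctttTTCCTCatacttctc
Itgax: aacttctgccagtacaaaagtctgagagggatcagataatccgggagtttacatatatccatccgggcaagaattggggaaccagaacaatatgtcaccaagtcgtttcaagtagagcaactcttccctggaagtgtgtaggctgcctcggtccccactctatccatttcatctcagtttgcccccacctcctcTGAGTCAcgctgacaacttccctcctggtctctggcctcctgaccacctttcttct
The Itgam stretch held the PU.1 letters 84 and 15 bases before its start and no AP-1 letters. The Itgax stretch held the AP-1 letters 56 bases before its start and no PU.1 letters. On both strands, the PU.1 letters were found in 23.3% of 32851 RefSeq mouse promoter stretches of that length and the AP-1 letters in 6.75%. The promoter table held 7 of the 10 genes. The AP-1 letters were found in Itgax only of those 7, and the PU.1 letters in Itgam, Itgav and Itgb1. A match of letters is a description and not a measured binding site.

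Levels are given as counts per 1000000 counts of the library (CPM), with library sizes scaled by the TMM method. The libraries held 14127506 to 17577466 counts, and 3 counts corresponded to 0.169 to 0.218 CPM. Of the 9328 genes whose average reached 5 CPM, more were at 0 counts in the IS mice (0.525% and 0.365%) than in the other mice (0.011% to 0.129%). Across all genes tested, edgeR's quasi-likelihood test gave 0 genes at an adjusted p under 0.05 in IP against DMSO, IS against DMSO and IS against IP (0% in each). At an unadjusted p under 0.05 it gave 418 of 12174, 632 of 11680 and 1049 of 12206 genes. At an adjusted p under 0.05, DESeq2 gave 19, 107 and 234 genes and edgeR's likelihood ratio test 10, 179 and 265 genes in the same order. A gene is counted below as called where its unadjusted p was under 0.05 with at least a 2-fold change, the thresholds named in the study's methods.

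Itgax was higher in both IS mice than in every other mouse. It stood at 23.2 and 13.2 CPM in DMSO mice 1 and 2, at 22.7, 20.4, 30.4 and 19.0 CPM in IP mice 1 to 4, and at 71.9 and 125 CPM in IS mice 1 and 2. The lowest IS value lay above the highest IP value, and the IP range covered DMSO mouse 1. The mean was 18.2 ± 7.11 CPM in DMSO mice (SD, n = 2), 23.1 ± 5.07 CPM in IP mice (SD, n = 4) and 98.2 ± 37.2 CPM in IS mice (SD, n = 2). The log2 difference was 2.41 (SE 0.48) for IS over DMSO and 2.09 (SE 0.33) for IS over IP. These 2 values come from the contrasts that led to the choice of the gene. For IP over DMSO, the log2 difference was 0.34 (SE 0.33), and edgeR's quasi-likelihood test did not pass (adjusted p = 0.980). The direction of that small difference turned without DMSO mouse 2 (−0.0068).

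Itgam rose with Itgax in IS mouse 2 but not in IS mouse 1. This gene for CD11b stood at 198 and 254 CPM in DMSO mice, at 178, 141, 213 and 236 CPM in IP mice, and at 103 and 384 CPM in IS mice. IS mouse 1 was the lowest and IS mouse 2 the highest of the 8 mice, with 3.74-fold between them. The log2 difference was 0.08 (SE 0.63) for IS over DMSO and 0.34 (SE 0.47) for IS over IP. Without IS mouse 2 both turned, to −1.20 and −0.91.

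**Figure D1:**
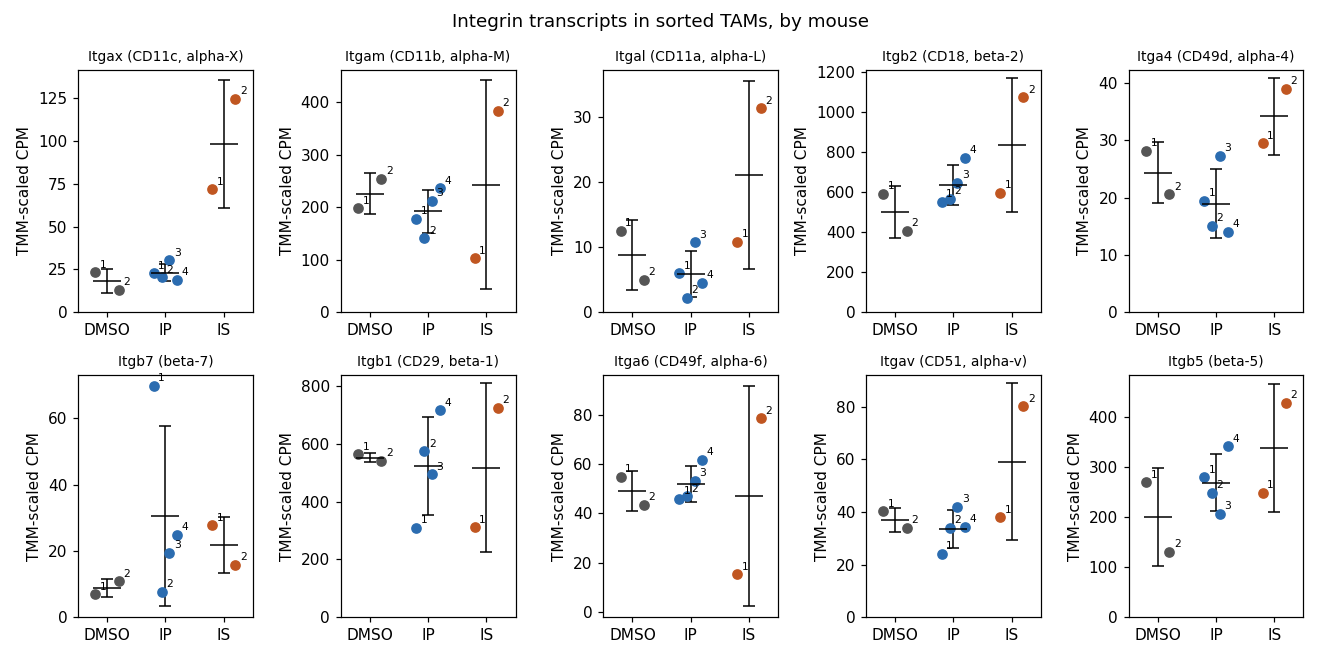
Level of each of the 10 integrin genes (TMM-scaled CPM, linear axis) in each mouse of the DMSO, IP and IS groups. Points are single mice with their replicate number, and bars are the group mean and SD. For Itgax the 2 IS mice sit at 71.9 and 125 CPM, above the other 6, while for Itgam and Itga6 the IS mice are the lowest and the highest of all.

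The share of Itgax among the α chains of β2 was compared per kb of exon. It was 10.5% and 5.06% in DMSO mice, 11.5%, 13.03%, 12.5% and 7.62% in IP mice, and 40.4% and 24.2% in IS mice. Itgam made up 83.8% to 93.5% of these chains in the DMSO and IP mice, and 55.1% and 71.3% in the IS mice. Per 100 Itgam counts, the IS mice held 70.1 and 32.4 Itgax counts, against 5.18 to 14.5 in the other 6 mice. This ratio is taken within a library, so it does not depend on how libraries were scaled. Fewer cells of a type and less RNA per cell cannot be told apart in these bulk libraries. Itgad, the remaining α chain of β2, reached at most 0.420% of the sum.

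**Figure D2:**
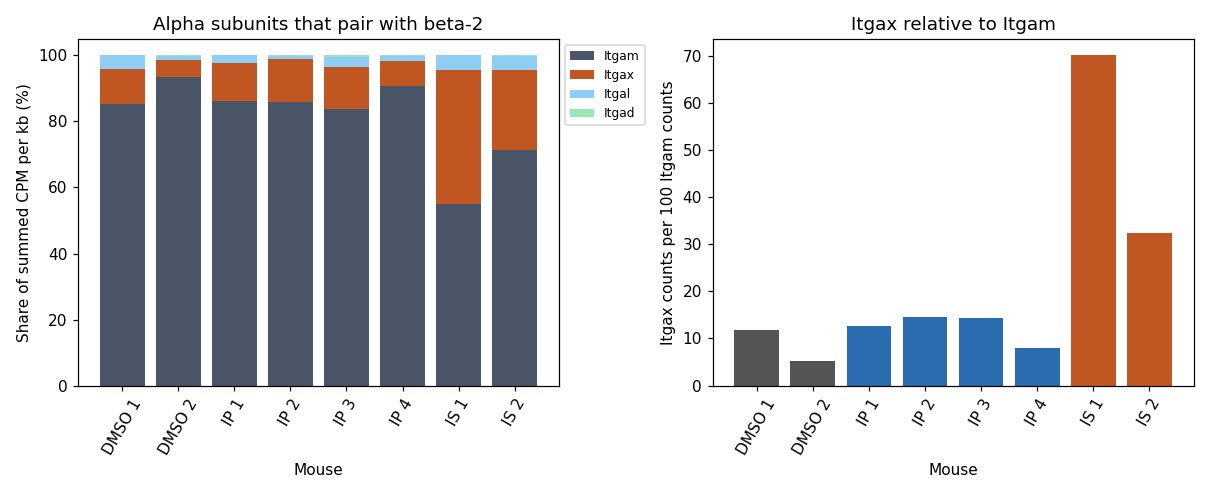
Left, share of each β2-pairing α chain gene in their summed CPM per kb of exon (stacked bars, percent) in each mouse. Right, Itgax counts per 100 Itgam counts in each mouse. The Itgax share is 40.4% and 24.2% in the IS mice and at most 13.03% in the other mice.

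Itgal, the α chain of LFA-1, was high only in IS mouse 2. It stood at 12.6 and 4.94 CPM in DMSO mice, at 5.99, 2.19, 10.7 and 4.55 CPM in IP mice, and at 10.8 and 31.4 CPM in IS mice. IS mouse 1 lay below DMSO mouse 1 and just above the highest IP mouse. The log2 difference was 1.25 (SE 0.76) for IS over DMSO and 1.85 (SE 0.66) for IS over IP, and without IS mouse 2 it was 0.26 and 0.88.

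Itgb2, the β chain that all of these α chains share, had the highest level per kb of the 10 genes. It stood at 591 and 408 CPM in DMSO mice, at 551, 568, 648 and 771 CPM in IP mice, and at 598 and 1074 CPM in IS mice. Both IS mice lay above both DMSO mice, but IS mouse 1 was within the IP range. The log2 difference was 0.72 (SE 0.41) for IS over DMSO and 0.40 (SE 0.29) for IS over IP, and without IS mouse 2 it was 0.20 and −0.09. Per kb, Itgb2 was 2.47 to 5.70 times the sum of its α chains in the 8 mice.

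Itga4 and Itgb7 encode α4 and β7, which join to bind VCAM-1, fibronectin and the gut address molecule MAdCAM-1. Itga4 stood at 28.2 and 20.6 CPM in DMSO mice, at 19.4, 15.1, 27.3 and 14 CPM in IP mice, and at 29.5 and 39.0 CPM in IS mice. Both IS mice lay above the other 6, although IS mouse 1 exceeded DMSO mouse 1 by little. The log2 difference was 0.47 (SE 0.40) for IS over DMSO and 0.85 (SE 0.37) for IS over IP. A gene on the opposite strand, Cerkl, overlaps Itga4 but held only 166 counts over the 8 libraries.

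Itgb7 was the member that differed most between IP and DMSO. It stood at 6.92 and 10.9 CPM in DMSO mice, at 69.8, 7.78, 19.5 and 24.9 CPM in IP mice, and at 27.8 and 15.9 CPM in IS mice. IP mouse 1 was the highest of the 8, while IP mouse 2 lay between the DMSO mice. The log2 difference for IP over DMSO was 1.76 (SE 0.77, adjusted p = 0.980 by edgeR's quasi-likelihood test), past the unadjusted threshold only, and higher in 3 of 4 IP mice than in either DMSO mouse. Without IP mouse 1 it was 0.96 and was no longer called. With the replicate number as a block it was 1.42 and with library sizes left unscaled 1.66, and it was not called in either fit. It was also not called without DMSO mouse 1 (1.48), DMSO mouse 2 (2.13) or IP mouse 4 (1.84). The log2 difference was 1.27 (SE 0.55) for IS over DMSO and −0.48 (SE 0.75) for IS over IP. Itgb7 thus stood above the DMSO mice in both IS mice and in 3 of 4 IP mice.

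Itgb1 encodes β1, the partner of many matrix-binding α chains. It stood at 564 and 540 CPM in DMSO mice, at 310, 574, 494 and 716 CPM in IP mice, and at 311 and 723 CPM in IS mice. IS mouse 1 stood at the bottom of the IP range and IS mouse 2 just over its top, and the log2 difference of the IS group was −0.12 (SE 0.46) from DMSO and −0.02 (SE 0.42) from IP. Itga6 encodes α6, a laminin-binding partner of β1. It stood at 54.9 and 43.5 CPM in DMSO mice, at 45.9, 47.0, 53.3 and 61.7 CPM in IP mice, and at 15.4 and 78.6 CPM in IS mice. The DMSO and IP mice lay close together, and the IS mice, 5.07-fold apart, fell on either side of them. No shift between groups can be read for Itga6 from a mean of such a pair.

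Itgav encodes αv, which with β5 binds vitronectin and the bridging protein MFG-E8 on dying cells. It stood at 40.3 and 33.9 CPM in DMSO mice, at 24.2, 34.1, 42.0 and 34.4 CPM in IP mice, and at 38.0 and 80.2 CPM in IS mice. Only IS mouse 2 lay above the other groups. The log2 difference of 0.65 (SE 0.46) for IS over DMSO fell to −0.03 without that mouse. Itgb5 stood at 269 and 131 CPM in DMSO mice, at 279, 249, 207 and 341 CPM in IP mice, and at 248 and 428 CPM in IS mice. The groups overlapped, with a log2 difference of 0.73 (SE 0.48) for IS over DMSO and 0.33 (SE 0.31) for IS over IP, and without IS mouse 2 it was 0.25 and −0.12. Per kb, Itgb5 exceeded Itgav 11.7 to 34.8 times in the 8 mice.

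**Figure D3:**
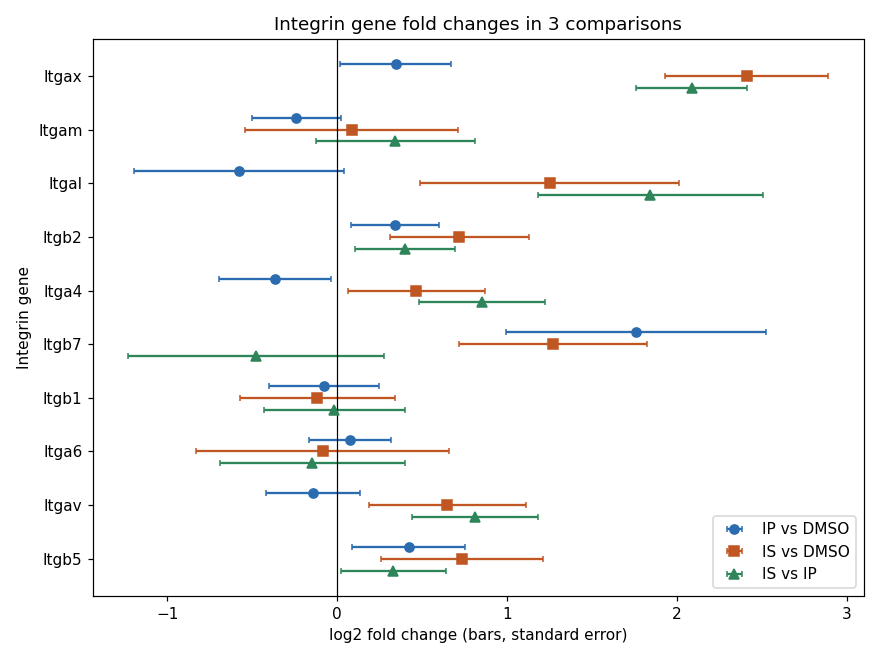
Log2 fold change (points) and standard error (bars) of the 10 integrin genes for IP over DMSO, IS over DMSO and IS over IP, from edgeR. Itgax stands at 2.41 and 2.09 in the IS comparisons and at 0.34 for IP over DMSO, and most other bars reach or cross 0 in at least 1 comparison.

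IS mouse 2 gave the highest level of the 8 mice for 9 of the 10 genes, Itgb7 being the exception. The fold between the IS mice ran from 1.32 for Itga4 to 5.07 for Itga6. In IS over DMSO the median log2 difference of the 10 genes was 0.68, with 8 genes higher and 2 lower, against 0.02 over all genes tested. Without IS mouse 2 that median was 0.21, and without IS mouse 1 it was 0.94. In IS over IP the median was 0.37 (7 higher, 3 lower), against 0.02 over all genes, and it was −0.10 without IS mouse 2. In IP over DMSO the median was −0.0016, with 5 genes higher and 5 lower. Itgax kept its direction in the IS comparisons without either IS mouse, at 1.93 over DMSO and 1.63 over IP without mouse 2.

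In IS over DMSO, 1 member (Itgax) was called higher, beside 2.29% of all genes tested called higher and 2.77% called lower. In IS over IP, 2 members (Itgax and Itgal) were called higher, beside 2.41% called higher and 4.64% called lower. These counts restate the choice of the genes. In IP over DMSO, 1 member (Itgb7) was called higher and 0 lower, beside 1.53% and 0.468% of all genes. The choice set IS against these groups and not IP against DMSO. It still used the same IP and DMSO libraries, so this count is not free of the choice. The 2 IS comparisons share the same IS libraries and are not independent. Both IS mice lay above both DMSO mice for 4 members (Itgax, Itgb2, Itga4 and Itgb7), and above all IP mice for 3 (Itgax, Itgal and Itga4). Among all genes tested, groups failed to overlap in either direction for 34.3% and 18.5% of genes in these comparisons. No member was free of overlap between IP and DMSO, where 14.1% of all genes were.

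Compared per kb of exon over the 8 mice, the mean levels followed the order Itgb2 (213), Itgb1 (130), Itgb5 (75.7), Itgam (42.5), Itgax (8.47), Itgb7 (8.28), Itga6 (5.54), Itgav (3.81), Itga4 (1.73) and Itgal (1.58 CPM per kb). The β chains thus stood above every α chain except for Itgb7. Most neighbors in this order kept it in 7 or 8 of the 8 mice. Itgax over Itgb7, and Itgb7 over Itga6, held in only 4 of 8 mice, so these 3 genes were not separated. Itgax ranked 6 of 10 in the DMSO mice, 7 in the IP mice and 5 in the IS mice. With the length of the longest transcript in place of the union of exons, Itga6 stood at 11.6, Itgax at 10.1 and Itgb7 at 8.55 CPM per kb, so that Itgax moved from rank 5 to 6.

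The other 17 integrin chain genes were mostly silent in the sorted cells. Only Itga5, Itga8, Itga9 and Itgb3 had a mean of at least 1 CPM, and 13 lay under it. Of those 13, Itga7 and Itga2b reached 5.97 and 5.53 CPM in IS mouse 2 alone. Elsewhere they were highest in IP mouse 4, at 1.28 and 1.11 CPM. Itga5, the fibronectin receptor chain, averaged 44.5 CPM in DMSO, 62.1 CPM in IP and 57.1 CPM in IS mice. Itga9 averaged 42.1, 39.4 and 36.9 CPM in the same order. Itgb3, the alternative β partner of αv, ran from 1.56 to 9.01 CPM with the IS mice at 9.01 and 1.60 CPM. None of these 3 genes was called in any comparison.

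Itga8 was lower in the IP mice than in both the DMSO and the IS mice. Its product α8 pairs with β1 and binds matrix proteins with an RGD sequence. It stood at 71 and 67 counts in DMSO mice, at 5, 4, 12 and 0 counts in IP mice, and at 189 and 94 counts in IS mice. In CPM these were 4.82 and 3.85, then 0.319, 0.243, 0.677 and 0.0, then 12.7 and 6.84. No value of a group lay within the range of another. Of all genes tested, 14.1% did not overlap between IP and DMSO, 34.3% between IS and DMSO and 18.5% between IS and IP. Itga8 was lower in 4 of 4 IP mice than in DMSO (log2 −3.77, SE 0.96, adjusted p = 0.980 in edgeR's fit across all genes). It was higher in 2 of 2 IS mice than in IP (log2 4.94, SE 1.11, adjusted p = 0.273 in the same kind of fit). The difference between IS and DMSO was 1.15 (SE 0.69) and was not called, beside 2.29% of all genes called higher. Itga8 was thus called lower in IP over DMSO, beside 0.468% of all genes, and higher in IS over IP, beside 2.41%. Both calls failed the adjustment over all genes. α8 is known mainly from smooth muscle and mesenchymal cells, and the 8 fibroblast and endothelial markers summed to 2.41 and 3.26 CPM in DMSO, 1.78 to 9.33 CPM in IP, and 1.14 and 9.17 CPM in IS mice. Most of that sum came from the endothelial genes Kdr and Pecam1, and the part of such cells in the Itga8 values was not tested.

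**Figure D4:**
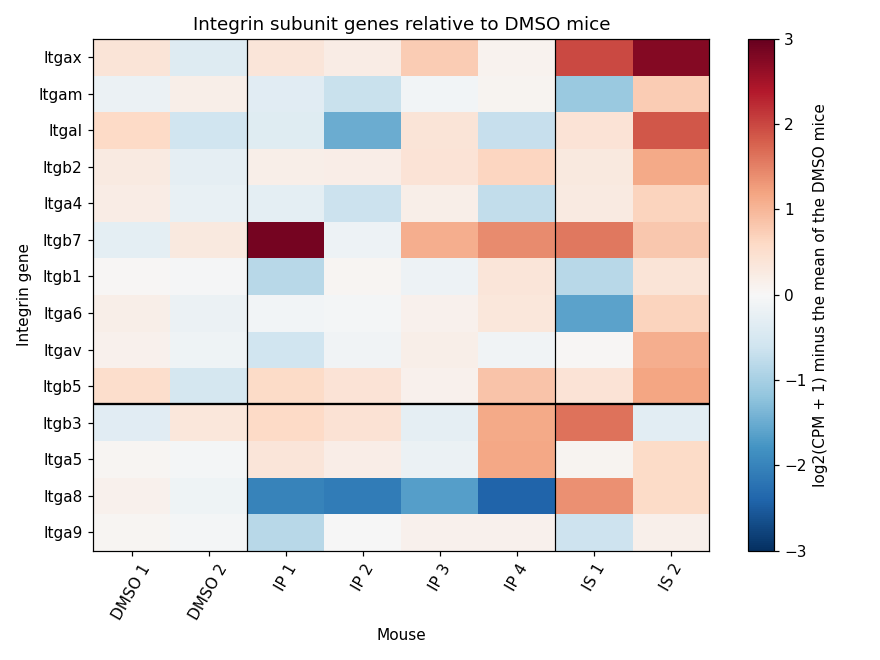
log2(CPM + 1) minus the mean of the DMSO mice for the 10 integrin genes (above the line) and the 4 other chain genes that averaged 1 CPM or more (below it), by mouse. Itgax is highest in both IS mice, Itga8 is low in all 4 IP mice (0.0 to 0.677 CPM), and Itgb7 is highest in IP mouse 1.

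Integrins are switched on from inside the cell by talins, kindlins and the small GTPase RAP1. Of 14 activator genes, 12 were tested in IP over DMSO and 11 in IS over DMSO, and 0 were called in either (beside 1.53% and 2.29% of all genes called higher). Rap1b averaged 1860 CPM in DMSO and 1407 CPM in IP mice (log2 −0.41, SE 0.23), and Tln1 averaged 143 and 202 CPM. Cyth1, which aids β2 adhesion, averaged 59.0 CPM in DMSO and 113 CPM in IS mice, with IS mouse 2 alone at 162 CPM. In IS over IP, 1 activator was called higher and 1 lower of 12 tested, beside 2.41% and 4.64% of all genes. Fermt2, a kindlin, was at 23.3 CPM in IS mouse 1 and 1.97 CPM in IS mouse 2, so its call rested on IS mouse 1. The melanoma list below was also highest in that mouse, and its part in this value was not tested. Tln2 stayed at or under 1.26 CPM in all mice and at 1 count in each IS mouse. Fermt3, the kindlin of blood cells, was at 196 and 387 CPM in IS mice and 293 to 369 CPM in the other mice.

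Of 6 genes that hold integrins inactive, 5 were tested against DMSO and 0 were called in IP or IS. Of all genes, 1.53% were called higher and 0.468% lower in IP over DMSO, and 2.29% and 2.77% in IS over DMSO. Itgb1bp1, which binds the β1 tail, averaged 61.8 CPM in DMSO and 67.3 CPM in IP mice, and Sharpin averaged 37.0 CPM in DMSO and 35.0 CPM in IS mice. Flna, a filamin that competes with talin for the β tail, stood at 115 and 208 CPM in IS mice, at 221 and 303 CPM in DMSO mice, and at 214 to 397 CPM in IP mice. It was lower in both IS mice than in all other mice, and was called lower against IP (log2 −1.01, SE 0.36, adjusted p = 0.492 by edgeR's fit across all genes), beside 4.64% of all genes. Of 22 genes that signal from bound integrins, 0 were called in either comparison with DMSO, beside the same shares of all genes. The parvin Parvg averaged 42.8 CPM in DMSO and 59.3 CPM in IP mice. Parvb, another parvin, stood at 4.55 and 4.42 CPM in DMSO and 21.1 and 6.33 CPM in IS mice, and Ptk2, the focal adhesion kinase FAK, at 8.14 and 10.7 CPM in DMSO and 22.3 and 13.98 CPM in IS mice. Tns1 and Src were called lower in IS than in IP, 2 of 22 tested, beside 4.64% of all genes. Tns1, a tensin, stood at 18.8 and 26.7 CPM in IS and 41.1 to 176 CPM in IP mice, although the DMSO mice were at 12.1 and 50.4 CPM. Src had 0 counts in both IS mice and was already at or under 1.78 CPM elsewhere.

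The 9 surface partners, mostly tetraspanins and other proteins that travel with integrins, all had a positive log2 difference in IS over DMSO, and 6 of 9 lay above both DMSO mice in both IS mice, as did 17.1% of all genes tested. Of these 9, 1 was called higher, beside 2.29% of all genes. It was Plaur, the urokinase receptor that binds β1 and β2 integrins. Plaur stood at 349 and 219 CPM in DMSO mice, at 867, 266, 223 and 396 CPM in IP mice, and at 655 and 708 CPM in IS mice (log2 1.24, SE 0.35, adjusted p = 0.747 by edgeR's fit across all genes). IP mouse 1 exceeded both IS mice. The tetraspanin Cd9 averaged 361 CPM in DMSO and 616 CPM in IS mice (log2 0.74, SE 0.30) and was not called. In IP over DMSO, 1 partner was called higher, beside 1.53% of all genes. It was the tetraspanin Cd82, at 13.6 and 14.99 CPM in DMSO and 19.5 to 59.6 CPM in IP mice (log2 1.21, SE 0.47, adjusted p = 0.980 by edgeR). Slc3a2, the CD98 heavy chain that binds β tails, averaged 498 CPM in DMSO and 735 CPM in IP mice (log2 0.56, SE 0.23), under the 2-fold limit.

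Of 28 ligand genes, 13 were tested in IS over DMSO and 4 were called higher and 0 lower, beside 2.29% of all genes called higher. Mfge8, which bridges αv integrins to dying cells, stood at 10.4 and 12.5 CPM in DMSO mice, at 17.6, 17.6, 7.90 and 19.4 CPM in IP mice, and at 66.6 and 49.3 CPM in IS mice. Both IS mice lay above the other 6, as for Itgax. Its log2 difference was 2.32 (SE 0.39, adjusted p = 0.747 in edgeR's fit across all genes) over DMSO and 1.89 (SE 0.39, adjusted p = 0.268) over IP. C3, whose fragments are bound by CD11b and CD11c with β2, stood at 6.24 and 2.87 CPM in DMSO, at 1.70 to 12.7 CPM in IP, and at 19.5 and 22.7 CPM in IS mice. It was called over DMSO (log2 2.19, SE 0.62, adjusted p = 0.747 by edgeR). F11r, the junction protein JAM-A that LFA-1 binds, stood at 11.5 and 6.78 CPM in DMSO, at 13.1 to 26.1 CPM in IP, and at 17.9 and 34.1 CPM in IS mice. Col4a1, a basement membrane collagen, stood at 0.136 and 0.172 CPM in DMSO mice, which is at or under 3 counts, at 3.06, 0.487, 0.677 and 0.525 CPM in IP mice, and at 0.874 and 2.40 CPM in IS mice. It lay above DMSO in all 6 treated mice and was the 1 ligand of 15 called higher in IP over DMSO, beside 1.53% of all genes.

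The genes whose centered log2 CPM profile over the 8 mice lay nearest to that of Itgax were Clec7a, Pilrb2, Prdm1, Zfp689 and Tlr3. Their root mean square distance from it was 0.37, 0.38, 0.44, 0.45 and 0.46 among 9327 genes ranked, where the median gene lay at 1.09. Clec7a, the β-glucan receptor Dectin-1, stood at 333 and 115 CPM in DMSO, at 231 to 443 CPM in IP, and at 627 and 889 CPM in IS mice. The nearest member was Itgal, at 0.68 (rank 109), then Itga4 at 0.71 (rank 164). Itgam lay at 1.09 and Itgb7 at 1.31, about as far as the median gene or beyond it. This likeness is a description of 8 libraries in which the IS pair stands apart.

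The macrophage markers, the gate's own cell type, were high in every mouse, with a summed level of 12370 to 19820 CPM. Adgre1 (listed as Emr1), the gene of F4/80, averaged 754 CPM in DMSO, 560 CPM in IP and 690 CPM in IS mice. The IS mean joins unlike mice, with Emr1 at 5358 and 14006 counts and Csf1r at 5243 and 15488 in IS mice 1 and 2. In the other mice these genes held 4993 to 13479 and 7918 to 13550 counts. Of 9 macrophage markers tested in IS over DMSO, 1 was called lower and 0 higher, beside 2.77% and 2.29% of all genes. It was Mrc1, which averaged 759 CPM in DMSO, 515 CPM in IP and 371 CPM in IS mice. Some other marker lists had higher sums in both IS mice than in the other mice, and some in IS mouse 1 only. The 10 dendritic cell markers summed to 9.42 and 20.2 CPM in DMSO mice, 5.54 to 15.3 CPM in IP mice, and 43.6 and 15.9 CPM in IS mice 1 and 2, where Itgax was at 71.9 and 125 CPM. In IS mice 1 and 2, Clec9a, Kmo and Fscn1 were at 0 counts and Flt3 at 0 and 3 counts. Ccr7 was at 173 and 45 counts, against 4 to 37 in the other mice, Cd209a at 247 and 0, Xcr1 at 2 and 81, Batf3 at 193 and 89, and Zbtb46 at 32 and 0 counts. Of the 5 dendritic markers tested in IS over IP, 1 (Ccr7) was called higher, beside 2.41% of all genes. In IS over DMSO 0 were called higher and 1 lower, beside 2.29% and 2.77% of all genes. The part of dendritic cells in the Itgax level was not tested.

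The 11 measured neutrophil markers summed to 186 and 193 CPM in DMSO, 133 to 186 CPM in IP, and 294 and 527 CPM in IS mice. Of 10 tested, 5 were called higher in IS over DMSO, beside 2.29% of all genes. In IS over IP, 7 of 11 were, beside 2.41%. The genes behind the sum differed between the 2 IS mice. Cxcr2 was at 2536 and 897 counts in IS mice 1 and 2, against 382 to 1684 elsewhere. Ngp was at 66 and 828, Ltf at 24 and 389 and Mpo at 11 and 278 counts, against at most 34, 14 and 20 elsewhere. Neutrophils and lymphocytes also make β2, α4 and β7 integrins, and the gate for F4/80 and CD11b and against Gr-1 should have left out neutrophils and most lymphocytes. The 11 T and NK cell markers summed to 9.30 and 25.8 CPM in DMSO, 2.80 to 20.2 CPM in IP, and 44.3 and 37.4 CPM in IS mice. Of 8 tested, 3 were called higher in IS over IP, beside 2.41% of all genes. These were Gzma at 222 and 95 counts in IS mice against at most 6 elsewhere, Nkg7 at 124 and 157 against at most 82, and Cd3g at 36 and 45 against at most 17. Cd3e was at 23 and 1 and Cd3d at 0 and 2 counts in IS mice. The 5 B cell markers summed to 27.1 and 29.8 CPM in IS mice and 8.81 to 20.7 CPM in the others. The melanoma markers summed to 2965 CPM in IS mouse 1 and 680 CPM in IS mouse 2, against 430 to 1652 CPM elsewhere. The part of these other cells in the integrin values was not tested.

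The 7 monocyte markers summed to 1150 and 2214 CPM in DMSO, 660 to 873 CPM in IP, and 448 and 851 CPM in IS mice. The platelet list ran from 648 to 2414 CPM without separating the IS mice, nearly all of it Pf4, which macrophages also express. Of the 5 mast cell and basophil markers, 3 were at 0 counts in all 8 mice.

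**Figure D5:**
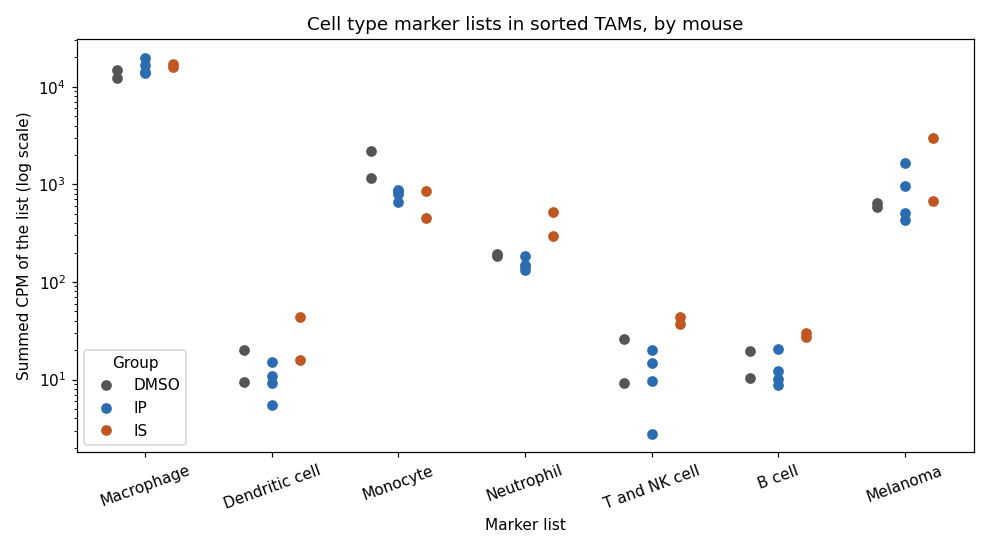
Summed CPM (log axis) of 7 cell type marker lists in each mouse of the DMSO, IP and IS groups. Macrophage markers are at 12370 to 19820 CPM in every mouse, and the neutrophil, T and NK cell and B cell sums of the IS mice lie above those of the other mice.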

How the data were processed

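RNA was sequenced from TAMs sorted from 8 mice (2 DMSO, 4 IP, 2 IS), and the file deposited by the authors holds 23413 genes as raw counts, 1 column per mouse. Per the study's methods, reads were aligned to mm10 with bowtie2 and counted with RSEM, whereas the submitters' processing notes name TopHat2 and edgeR. The deposited counts were whole numbers. Reads shared by near-identical genes may have been split by the counter, and strand handling was not given in the sources used here.

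Group names came from the labels, and IS was read as the paratumor subcutaneous route of the study. Sex, age, dosing days, the IS dose and the sort gate are as the study gives them. Each pair of groups was fitted alone in edgeR 4.0.16 (R 4.3.3) with filterByExpr (minimum count 10, minimum total 15), TMM scaling, quasi-likelihood tests and Benjamini-Hochberg adjustment over all genes tested. Every mouse was a separate library. The p-values weigh each group difference against a spread between mice that edgeR estimates partly from all genes together. CPM values used the same scaling over all 8 libraries. Levels per kb used the union of exons in GENCODE vM21. The tests were checked on simulated counts. With 2 mice in a group, each library carries much weight. Depth gives a floor of 3 counts for a gene at 0, for counting error only.

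The members and lists were chosen with earlier results of these data known. Named genes were the 10 members, other integrin chains with a mean of at least 1 CPM, the 2 genes of each pathway list with the smallest p in IP or IS against DMSO, and the 5 genes nearest to Itgax in profile among those with a mean of at least 5 CPM. Genes named beyond that rule (Itga7, Itga2b, Tln2, Fermt3, Src and the cell type markers) were chosen after their values were seen.

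Alternatives were other filters, RLE or unscaled library sizes, a likelihood ratio test, DESeq2 1.42.0, 1 fit of all groups, a replicate block, and leaving out each mouse. Itga8, IP mice 1 and 2 alone, and a crossed block were added after seeing the data. Promoter sequences came from RefSeq (GRCm38.p6). Python 3.11.15, pandas 2.3.3 and numpy 2.4.6 were used for summaries.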

Additional observations from a re-analysis of the deposited data

Results flagged for a closer look

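Itga8 stood out because every IP mouse lay below both DMSO mice while both IS mice lay above them. Its log2 difference between IS and IP was 4.94 (SE 1.11, adjusted p = 0.273 in edgeR's quasi-likelihood fit across all genes), higher in 2 of 2 IS mice than in any IP mouse. Of all genes tested, 18.5% did not overlap between IS and IP. The IS level of Itga8 was not called against DMSO. The cause of the Itga8 difference was not tested.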

How the results depend on the processing

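Over 30 member differences, signs held in 30 with no filter, a 1 CPM filter, RLE scaling, the likelihood ratio test, DESeq2 and 1 fit of all groups, in 29 with unscaled libraries and in 27 with the replicate block. Deviations of same-numbered mice from their group means correlated at −0.187 to 0.170. In a group of 2 mice the deviations mirror each other, so these values cannot show whether the numbers paired the mice. In IP over DMSO, Itga6 turned from 0.08 to −0.0818 with the block and to −0.0906 with IP mice 1 and 2 alone. Leaving out 1 mouse, it ran from −0.0802 to 0.25, Itgax from −0.0068 to 0.81 and Itgb5 from −0.0050 to 1.04 (all turning without DMSO mouse 2), Itgal from −1.10 to 0.24 (turning without DMSO mouse 1), and Itgb1 from −0.27 to 0.11 (turning without IP mouse 1). The 1 member called in IP over DMSO, Itgb7, became 0 with unscaled libraries, with the block and with IP mice 1 and 2 alone. Leaving out 1 mouse gave 0 to 1 (0 without DMSO mouse 2, IP mouse 1 or IP mouse 4), and without DMSO mouse 1 the 1 member called was Itgb5 (1.04) and not Itgb7 (1.48).

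Pathway genes called in IS over DMSO numbered 5, and 3 (without DMSO mouse 1) to 20 (without IS mouse 2) leaving out 1 mouse. In IS over IP they numbered 7, against 11 with no filter, 3 with the block, and 4 (without IP mouse 4) to 15 (without IS mouse 2). The median of the members ran from −0.08 to 0.25 in IP over DMSO, from 0.21 to 0.94 in IS over DMSO and from −0.10 to 0.88 in IS over IP, both lowest without IS mouse 2. Itgax ran from 1.93 to 2.87 in IS over DMSO and from 1.63 to 2.43 in IS over IP. Without IS mouse 2, Itgam and Itgav turned in IS over DMSO (−1.20 and −0.03), and Itgam, Itgb2 and Itgb5 in IS over IP (−0.91, −0.09 and −0.12). Without IS mouse 1, Itgb1 and Itga6 turned in both (0.36 and 0.65 over DMSO, 0.46 and 0.59 over IP), and without IP mouse 1 Itgb7 turned in IS over IP (0.33). Near 0, Itgam in IS over DMSO also turned with unscaled libraries (−0.08), the block (−0.20), the crossed block (−0.20) and without DMSO mouse 1 (−0.09), Itga6 there without DMSO mouse 1 (0.08), and Itgb1 in IS over IP with the block (0.15) and without IP mouse 2 (0.03) or 4 (0.17). The rank of Itgax per kb moved from 5 to 6 with the longest transcript. The block gave 19 genes of all at an adjusted p under 0.05 in IS over DMSO and the crossed block 2, each with 1 member called. With a lone mouse in a group, that mouse is assumed to vary like the others. The counts of pathway genes called without a DMSO mouse or an IS mouse rest on that assumption. No share of all genes is set beside the pathway gene counts of the alternative fits. Those counts therefore cannot show whether pathway genes were called more often than other genes. The causes of the changes between settings were not tested. With 2 mice in the DMSO and IS groups, small differences were not detectable.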
